A study of Mus musculus with 15 samples.

Results

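The Polycomb, DNA methylation and Mll complex genes are a list of 38 genes for proteins that write, read or remove marks on histones and DNA. Of these, 34 were measured, among 17097 genes in all. A gene counted as measured when at least 1 probe set carried its symbol alone, and its brightest probe set by the mean over 15 arrays gave its values. Phf19, Cbx8, Tet1 and Kmt2a were not analysed here, so Kmt2a (Mll) itself is absent and the list's group of Kmt2a partners is left with Men1 and Dot1l. By role, the measured genes were 9 of 10 for Polycomb repressive complex 2 (PRC2), 14 of 15 for Polycomb repressive complex 1 (PRC1, counting Kdm2b, which recruits it) and 3 of 3 for the deubiquitinase PR-DUB. The remaining groups were 5 of 6 DNA methyltransferases (Dnmt) and methylcytosine dioxygenases (Tet), 2 of 3 for Kmt2a and its partners, and Setdb1, an H3K9 methyltransferase.

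PRC2 trimethylates histone H3 at lysine K27 through Ezh1 or Ezh2, and PRC1 ubiquitinates histone H2A through Ring1 or Rnf2 with a Pcgf subunit, and both keep developmental genes silent. Dnmt enzymes place methyl groups on CpG sites and Tet enzymes oxidise them, while Kmt2a complexes mark active promoters and oppose Polycomb at Hox genes. In blood stem cells these proteins are known for regulating self-renewal and lineage genes, some in opposite directions, and several of their genes are mutated in leukaemia.

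The cells were LSK cells, the lineage-negative, Sca-1+ and Kit+ bone marrow fraction with stem cells and early progenitors. Female C57Bl/6L marrow donors had been given 5-FU, their cells received a retroviral vector, which was MSCV-HOXB4-ires-YFP in the HOXB4 groups and MSCV-ires-GFP in the controls, and lethally irradiated C57Bl/6L mice were the recipients. Fluorescent LSK cells were sorted from the recipients and went to RNA extraction without culture. HOXB4, a homeodomain protein, expands blood stem cells when it is overexpressed. The HOXB4 groups were taken at 6, 12 and 20 weeks after transplantation and the GFP groups at 12 and 20 weeks, with 3 arrays each, and no GFP arrays from 6 weeks were analysed here. These times are those of the sample titles, whereas the series text puts the last time at 24 weeks. All 5 groups share 5-FU donors, retroviral transduction, irradiated recipients and the sort gate. In the HOXB4 groups the gene came from a retroviral vector and not from its own locus. The recipients also keep host cells, which carry no fluorescent marker. Whether the arrays of a group stand for separate mice is not given in the labels, and p-values therefore measure only the spread between arrays, which may be technical.

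Values are log2 RMA signals, and 1 unit is a doubling of signal. Replicate arrays correlated at 0.969 to 0.980 for HOXB4 at 6 weeks, 0.992 to 0.995 for HOXB4 at 12 weeks and 0.980 to 0.993 in the other groups. The Gapdh control probes, a sign of RNA quality, differed between the 3' and 5' ends by 3.76, 1.68 and 1.71 on the log2 scale on the 3 arrays of the 6-week group. On the other 12 arrays they differed by 0.809 to 2.02, and only replicate 3 of HOXB4 at 20 weeks, at 2.02, reached the 6-week values. The median SD of a member between replicates was 0.245 for HOXB4 at 6 weeks, the widest of the groups, and 0.102 for HOXB4 at 12 weeks, against 0.203 and 0.114 over all genes. The Hoxb4 probe set had group means between 6.53 and 6.83, and as it is not known here whether it reads the vector's HOXB4 it does not check the labels. Of the markers that define the LSK fraction, Kit was measured, with group means from 8.07 to 8.70, while Ly6a (Sca-1) was not analysed here.

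At 12 weeks after transplantation no member passed the test between HOXB4 and GFP cells, and at 20 weeks 4 of 34 passed. At 20 weeks Ezh1, a catalytic subunit of PRC2, and Pcgf2 and Cbx2, subunits of PRC1, were higher in HOXB4 cells, and Tet2, a methylcytosine dioxygenase, was lower. A gene passed at a Benjamini-Hochberg adjusted p under 0.05 over all 17097 genes, from limma. The share of all genes that passed was 4.02% at 12 weeks (1.82% higher and 2.2% lower), where 5 of the 34 members had an unadjusted p under 0.05. At 20 weeks it was 8.95% (3.77% higher and 5.18% lower), against 11.8% of the members, and 9 of the 34 had an unadjusted p under 0.05. The share of all genes with an unadjusted p under 0.05 was not counted. Counts at that threshold, here and below, therefore can show neither an excess nor its absence, in the members or in other lists. The median member difference was -0.10 at 12 weeks, beside -0.02 over all genes, and 0.08 at 20 weeks, beside 0.02 over all genes. Taking the mean of both times, 3 of 34 members passed (8.82%, beside 15.4% of all genes, 6.19% higher and 9.16% lower), namely Ezh1 and Pcgf2, which were higher, and Kdm2b, which was lower. These shares rest on 0 members at 12 weeks, 4 at 20 weeks and 3 over both times, and the counts changed with the fit, as given below. Whether they differ from the shares of all genes was not tested.

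**Figure D1:**
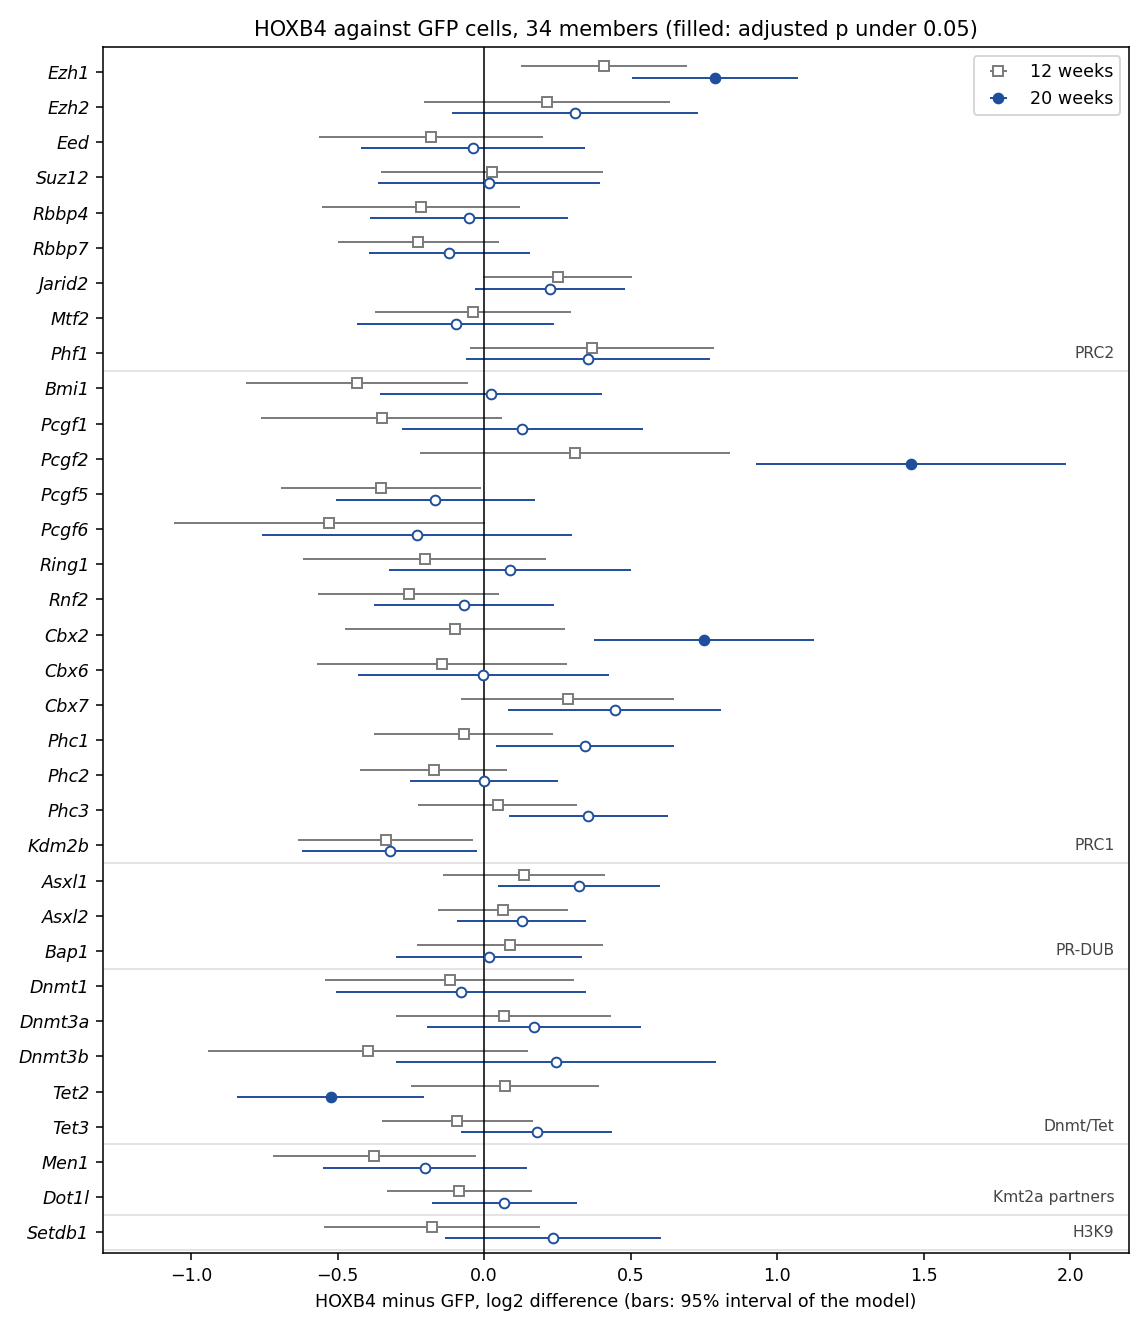
Log2 difference between HOXB4 and GFP cells for each of the 34 members, at 12 weeks (grey squares) and 20 weeks (blue circles), with bars for the 95% interval of the model and filled points for an adjusted p under 0.05. Only Ezh1, Pcgf2, Cbx2 and Tet2 have filled points, all at 20 weeks, and most other intervals include 0.

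Groups were also compared by overlap, that is, whether all 3 arrays of one lay above all 3 of the other. At 12 weeks this held for 15 of 34 members (44.1%, beside 34.8% of all genes), 5 of them higher and 10 lower in HOXB4 cells, beside 14.4% and 20.5% of all genes. At 20 weeks it held for 8 members (23.5%, beside 25.4% of all genes), 5 of them higher and 3 lower, beside 12.9% and 12.5% of all genes. The 95% interval of a member's difference reached a median of 0.34 to either side and at most 0.54 at either time, which is the precision that 3 arrays a group gave.

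All 3 members that were higher at 20 weeks, Ezh1, Pcgf2 and Cbx2, lie on chromosome 11, which holds 4 of the measured members and 8.04% of all genes tested. Of the 1362 genes on that chromosome, 4.19% were called higher, beside 3.77% of all genes. Promoters are shown for Ezh1 and Pcgf2, the members with the smallest adjusted p among those higher at 20 weeks, and for Tet2, the member that was lower. Each is the 250 bases before the start of the gene, 5′ to 3′, from RefSeq on GRCm38.p6, at chr11:101226464-101226713, chr11:97699649-97699898 and chr3:133544391-133544640, all on the minus strand. Capitals mark CpG dinucleotides, the sites that Dnmt and Tet enzymes act on and that Kdm2b reads.
Ezh1: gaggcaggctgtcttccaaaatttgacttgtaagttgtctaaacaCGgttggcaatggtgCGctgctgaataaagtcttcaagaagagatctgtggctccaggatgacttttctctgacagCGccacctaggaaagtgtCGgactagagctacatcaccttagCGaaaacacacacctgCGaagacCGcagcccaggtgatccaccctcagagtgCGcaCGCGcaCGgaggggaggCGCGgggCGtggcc
Pcgf2: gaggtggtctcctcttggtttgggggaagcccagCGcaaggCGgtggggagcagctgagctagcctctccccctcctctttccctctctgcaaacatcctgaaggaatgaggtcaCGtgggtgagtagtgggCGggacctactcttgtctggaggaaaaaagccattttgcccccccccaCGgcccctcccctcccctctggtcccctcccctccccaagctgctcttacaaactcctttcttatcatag
Tet2: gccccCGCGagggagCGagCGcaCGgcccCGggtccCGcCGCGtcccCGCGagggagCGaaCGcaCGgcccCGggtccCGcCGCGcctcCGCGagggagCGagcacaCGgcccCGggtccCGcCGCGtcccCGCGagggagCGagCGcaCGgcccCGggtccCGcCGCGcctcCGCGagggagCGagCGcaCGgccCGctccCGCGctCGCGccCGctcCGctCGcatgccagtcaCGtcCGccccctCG
Among these, Tet2 holds 51 CpG sites, a number that 0.067% of all 32851 promoters in the table reach. Ezh1 holds 14, which 29.4% reach, and Pcgf2 holds 5, which 55.6% reach.

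Promoters were found for 32 of the 34 measured members, with 47 start sites, and Cbx2 and Pcgf1 are named only. The median was 21 CpG sites for the members' promoters, beside 6 for all promoters, with a range from 1 to 51. The site of Hox proteins with the cofactor Pbx, written TGATTNAT and searched on both strands, was in 0 of the 47 promoters and in 2.82% of all promoters. The E-box CACGTG, which reads the same on both strands and can overlap the Hox-Pbx site only in the end letters TG or CA, was in 8 of the 47 and in 6.02% of all. It contains a CpG and is present in the Pcgf2 promoter shown above but not in those of Ezh1 and Tet2. A match is a run of letters, not a site of binding, and a missing match says only that these letters are not in the window.

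Ezh1, the PRC2 methyltransferase that predominates in resting cells, had the clearest difference in PRC2. In GFP cells its log2 signal was 7.37, 7.33 and 7.40 at 12 weeks and 7.09, 7.10 and 7.19 at 20 weeks. In HOXB4 cells it was 7.04, 7.37 and 7.32 at 6 weeks, 7.82, 7.68 and 7.82 at 12 weeks, and 7.62, 8.17 and 7.95 at 20 weeks. All HOXB4 arrays at 12 and 20 weeks lay above all GFP arrays, whereas the 6-week HOXB4 arrays overlapped the GFP arrays. The difference was 0.41 ± 0.13 (standard error of the model, SE) at 12 weeks, where the adjusted p was 0.100, and 0.79 ± 0.13 at 20 weeks, 1.73-fold higher (adjusted p = 0.00152). Over both times Ezh1 was higher by 0.60 ± 0.09 (adjusted p = 0.000692). The effect at 20 weeks exceeded that at 12 weeks by 0.38 ± 0.19 (adjusted p = 0.546), so no change of the effect with time was shown. In order of level, the GFP 20-week mean was lowest, followed by HOXB4 at 6 weeks, GFP at 12 weeks, HOXB4 at 12 weeks and HOXB4 at 20 weeks. Of these neighbours, only GFP at 12 weeks and HOXB4 at 12 weeks did not overlap.

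Ezh1 has 3 other probe sets, of which a bright one (mean 7.02) gave 0.83 at 20 weeks (limma adjusted p over all probe sets = 0.00412). The 2 dim ones, with means of 5.12 and 4.10, gave 0.21 and -0.24 at 20 weeks, and with the mean over all probe sets of the gene the difference was 0.40 (adjusted p = 0.0354).

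**Figure D2:**
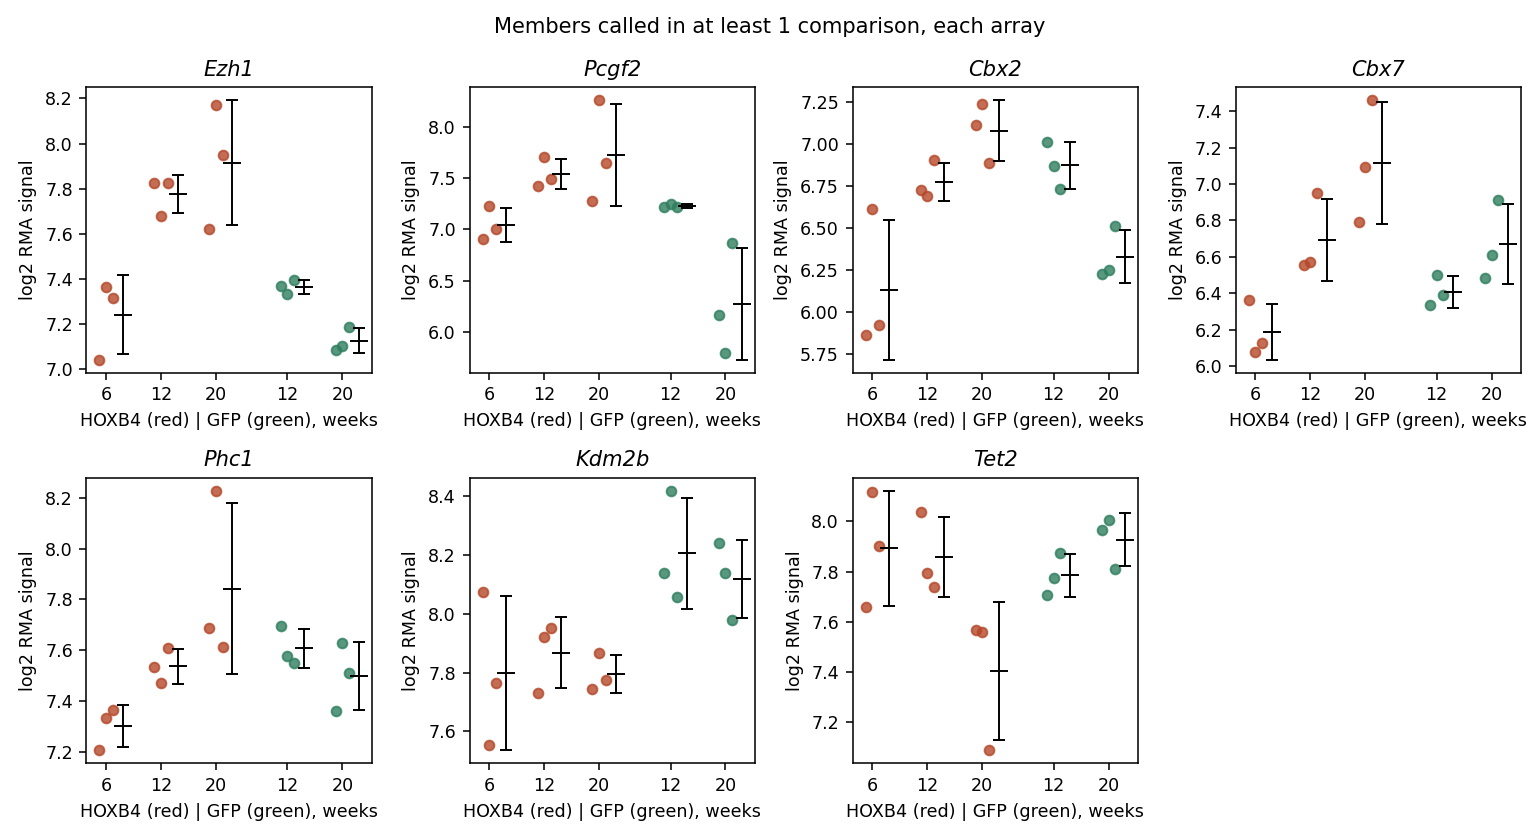
Log2 RMA signal on each array for the 7 members that passed in at least 1 comparison, with HOXB4 groups in red at 6, 12 and 20 weeks, GFP groups in green at 12 and 20 weeks, and bars for the mean and SD of 3 arrays; each panel has its own scale. Ezh1, Pcgf2 and Cbx2 separate the HOXB4 and GFP groups at 20 weeks, and the 3 Tet2 values of HOXB4 cells at 20 weeks lie under all others.

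The other 8 PRC2 members did not pass between HOXB4 and GFP cells, with differences at 20 weeks from -0.12 for Rbbp7 to 0.35 for Phf1. Ezh2, the methyltransferase of dividing cells and the paralogue of Ezh1, was set beside it after its values had been seen. It was at 8.80, 8.97 and 8.81 in GFP cells at 12 weeks and 8.76, 8.72 and 9.04 at 20 weeks. With HOXB4 it was at 9.21, 8.96 and 9.05 at 12 weeks and 9.63, 8.96 and 8.87 at 20 weeks. The groups overlapped at both times, and the differences were 0.22 ± 0.20 and 0.31 ± 0.20. Within arrays, the difference of Ezh1 minus Ezh2 at 20 weeks was on average 0.48 greater with HOXB4, where it ran from -2.01 to -0.78, than with GFP, where it ran from -1.85 to -1.62, and these ranges overlapped.

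By mean signal, Rbbp7 stood highest and Phf1 lowest among the PRC2 probe sets, which is no order of abundance since probe sets differ in brightness. Rbbp7, a histone-binding WD40 protein shared with other complexes, was at 10.14, 10.15 and 10.13 in GFP cells and 10.10, 10.01 and 9.95 in HOXB4 cells at 20 weeks. The groups did not overlap, yet the difference of -0.12 ± 0.13 was within the error of the model (adjusted p = 0.652). Phf1, a Polycomb-like protein that binds methylated H3K36, was at 6.07, 5.59 and 5.69 in GFP cells at 12 weeks and 5.98, 6.06 and 6.43 at 20 weeks. The HOXB4 arrays were at 5.69, 6.11 and 5.95 at 6 weeks, 6.15, 6.04 and 6.27 at 12 weeks, and 6.08, 6.59 and 6.87 at 20 weeks. The HOXB4 and GFP groups overlapped at both times, and the differences were 0.37 ± 0.19 and 0.35 ± 0.19 (adjusted p = 0.321 and 0.311). The core subunits Eed and Suz12, which hold the complex together and were named after their values had been seen, gave -0.04 ± 0.18 and 0.02 ± 0.18 at 20 weeks.

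Pcgf2 (Mel18), a Pcgf subunit of canonical PRC1, had the largest difference of all 34 members. In GFP cells it was at 7.22, 7.25 and 7.22 at 12 weeks and at 6.16, 5.79 and 6.86 at 20 weeks. In HOXB4 cells the signal was 6.90, 7.23 and 7.0 at 6 weeks, 7.42, 7.71 and 7.50 at 12 weeks, and 7.28, 8.26 and 7.65 at 20 weeks. The 3 GFP arrays at 20 weeks lay below the other 12 arrays, and the HOXB4 arrays at 12 and 20 weeks lay above all GFP arrays. At 20 weeks Pcgf2 was higher in HOXB4 cells by 1.46 ± 0.25, or 2.75-fold (adjusted p = 0.00164), and at 12 weeks the difference was 0.31 ± 0.25 (adjusted p = 0.539). The mean over both times was 0.88 ± 0.17 (adjusted p = 0.00359). The difference between the effects, 1.15 ± 0.35, did not pass (adjusted p = 0.204). Within GFP cells the value at 20 weeks differed from that at 12 weeks by -0.96 ± 0.25 (adjusted p = 0.0597), and these GFP arrays enter both comparisons.

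A dimmer probe set of Pcgf2, with a mean of 5.23, gave only 0.06 at 20 weeks. With the mean of both probe sets the difference was 0.76 (adjusted p = 0.00475), and in a fit of only the HOXB4 and GFP arrays of that time it no longer passed (adjusted p = 0.0537). Bmi1 (Pcgf4), the closest paralogue of Pcgf2 and a self-renewal factor of blood stem cells, was chosen for comparison after its values had been seen. At 12 weeks it was at 7.84, 7.66 and 7.58 in GFP and 7.18, 7.29 and 7.31 in HOXB4 cells. At 20 weeks it was at 7.49, 7.37 and 7.99 in GFP and 7.64, 7.48 and 7.80 in HOXB4 cells. The groups were apart at 12 weeks and overlapped at 20 weeks, with differences of -0.43 ± 0.18 (adjusted p = 0.194) and 0.02 ± 0.18 (adjusted p = 0.961). Within arrays, Pcgf2 minus Bmi1 at 20 weeks ran from -1.58 to -1.13 with GFP and from -0.36 to 0.78 with HOXB4. At 12 weeks it ran from -0.62 to -0.36 with GFP and from 0.18 to 0.42 with HOXB4. The HOXB4 and GFP ranges of that within-array difference were apart at both times.

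Cbx2, a chromodomain subunit that lets PRC1 bind trimethylated H3K27 and compact chromatin, was at 7.02, 6.87 and 6.74 in GFP cells at 12 weeks and 6.23, 6.25 and 6.51 at 20 weeks. With HOXB4 it was at 5.87, 6.61 and 5.92 at 6 weeks, 6.73, 6.69 and 6.90 at 12 weeks, and 7.12, 7.24 and 6.89 at 20 weeks. The groups overlapped at 12 weeks and were apart at 20 weeks. At 20 weeks Cbx2 was higher with HOXB4 by 0.75 ± 0.18, or 1.68-fold (adjusted p = 0.0139), beside -0.10 ± 0.18 at 12 weeks (adjusted p = 0.815). The difference between the effects was 0.85 ± 0.25 (adjusted p = 0.182). Within HOXB4 cells Cbx2 rose from 6 to 20 weeks by 0.95 ± 0.18, or 1.93-fold (adjusted p = 0.00973). Leaving out GFP replicate 1 or 2 or HOXB4 replicate 2 at 20 weeks ended the call between HOXB4 and GFP cells, at 0.70, 0.71 and 0.67 (adjusted p = 0.0632, 0.0645 and 0.0536). The other probe set of Cbx2 gave 0.60 at 20 weeks, which did not pass.

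Cbx7, a Cbx subunit known to favour self-renewal of blood stem cells, was at 6.33, 6.5 and 6.39 in GFP cells at 12 weeks and 6.49, 6.61 and 6.91 at 20 weeks. The HOXB4 arrays were at 6.36, 6.07 and 6.13 at 6 weeks, 6.55, 6.57 and 6.95 at 12 weeks, and 6.79, 7.09 and 7.46 at 20 weeks. The HOXB4 arrays at 6 weeks lay below those at 12 and 20 weeks, which overlapped each other, and HOXB4 and GFP overlapped at 20 weeks. Cbx7 rose in HOXB4 cells from 6 to 20 weeks by 0.93 ± 0.17, or 1.90-fold (adjusted p = 0.00932). Against GFP it differed by 0.29 ± 0.17 at 12 weeks and 0.45 ± 0.17 at 20 weeks (adjusted p = 0.387 and 0.129), and the mean of both, 0.37 ± 0.12, narrowly missed (adjusted p = 0.0531). Of its 2 other probe sets, 1 passed both over both times against GFP, at 0.38 (adjusted p over all probe sets = 0.0272), and between 20 and 6 weeks, at 0.71 (0.0196), and the other gave 0.29 between 20 and 6 weeks. The paralogue Cbx6, set beside them after its values had been seen, gave 0.00 between HOXB4 and GFP cells at 20 weeks (SE 0.20).

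Phc1, a polyhomeotic subunit that lets PRC1 polymerise, was at 7.69, 7.58 and 7.55 in GFP cells at 12 weeks and 7.36, 7.63 and 7.51 at 20 weeks. In HOXB4 cells the signal was 7.20, 7.33 and 7.36 at 6 weeks, 7.53, 7.47 and 7.61 at 12 weeks, and 7.69, 8.23 and 7.61 at 20 weeks. The 3 arrays at 6 weeks lay below those at 12 and 20 weeks, and replicate 2 at 20 weeks stood above every other array. Phc1 rose from 6 to 20 weeks by 0.54 ± 0.14, or 1.46-fold (adjusted p = 0.0447). This call was near the threshold: it was lost on leaving out any of 12 arrays, among them HOXB4 replicate 2 at 20 weeks (0.35, adjusted p = 0.133) and replicate 1 at 6 weeks (0.49, adjusted p = 0.0967). Between HOXB4 and GFP cells Phc1 differed by 0.34 ± 0.14 at 20 weeks (adjusted p = 0.165). Its paralogues, named after their values had been seen, gave 0.35 ± 0.13 for Phc3 and 0.00 ± 0.12 for Phc2 at that time, and neither passed.

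Kdm2b, an H3K36 demethylase that brings PRC1 to unmethylated CpG islands, was at 8.14, 8.42 and 8.06 in GFP cells at 12 weeks and 8.24, 8.14 and 7.98 at 20 weeks. With HOXB4 it was at 7.73, 7.92 and 7.95 at 12 weeks, 7.74, 7.87 and 7.78 at 20 weeks, and 8.07, 7.55 and 7.77 at 6 weeks. All HOXB4 arrays at 12 and 20 weeks lay below all GFP arrays. Kdm2b was lower by 0.33 on average over both times, 1.26-fold (log2 difference -0.33 ± 0.10, adjusted p = 0.0361), with -0.34 ± 0.14 and -0.32 ± 0.14 at the single times (adjusted p = 0.200 and 0.187). The call ended on leaving out any of 9 arrays. These were all 3 HOXB4 arrays at 12 weeks, GFP replicates 1 and 2 at 12 and at 20 weeks, and HOXB4 replicates 1 and 3 at 20 weeks. The values stayed between -0.37 and -0.28, with the largest adjusted p at 0.0914. A further quantile normalisation also ended it (-0.24, adjusted p = 0.131).

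Of the rest of PRC1, none passed in any of the 8 comparisons, with differences at 12 weeks down to -0.53 ± 0.25 for Pcgf6 (adjusted p = 0.256). The rule for naming also took Pcgf5 and Pcgf1, the PRC1 probe sets with the highest and the lowest mean, and both proteins belong to variant PRC1. Pcgf5 was at 9.02, 9.12 and 9.25 in GFP and 8.69, 8.75 and 8.89 in HOXB4 cells at 12 weeks. The values at 20 weeks were 9.16, 9.12 and 8.61 in GFP and 8.83, 8.73 and 8.82 in HOXB4 cells. The groups were apart at 12 weeks and overlapped at 20 weeks, with differences of -0.35 ± 0.16 and -0.17 ± 0.16 (adjusted p = 0.240 and 0.605). Another probe set of Pcgf5 passed over both times at -0.50 (adjusted p over all probe sets = 0.0361). Pcgf1 was at 6.75, 6.07 and 6.28 in GFP and 6.07, 6.04 and 5.95 in HOXB4 cells at 12 weeks. The values at 20 weeks were 5.97, 6.18 and 6.07 in GFP and 5.98, 6.5 and 6.13 in HOXB4 cells. The groups overlapped at both times, and Pcgf1 differed by -0.35 ± 0.19 and 0.13 ± 0.19. The catalytic pair Ring1 and Rnf2 gave 0.09 ± 0.19 and -0.07 ± 0.14 at 20 weeks.

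The PR-DUB genes, whose products remove ubiquitin from histone H2A, did not pass in any comparison. Asxl1, whose truncation is frequent in myeloid disease, differed between HOXB4 and GFP cells by 0.14 ± 0.13 at 12 weeks and 0.32 ± 0.13 at 20 weeks (adjusted p = 0.624 and 0.149). Bap1, the deubiquitinase, had the highest mean of the 3 probe sets and was at 8.35, 8.62 and 8.42 in GFP and 8.63, 8.31 and 8.49 in HOXB4 cells at 20 weeks. Asxl2, the lowest, was at 7.78, 7.82 and 7.92 in GFP and 7.90, 8.14 and 7.86 in HOXB4 cells. Both overlapped between the groups, with differences of 0.02 ± 0.15 for Bap1 and 0.13 ± 0.10 for Asxl2.

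Tet2, a dioxygenase that oxidises 5-methylcytosine and a restraint on stem cell self-renewal, was at 7.71, 7.77 and 7.87 in GFP cells at 12 weeks and 7.97, 8.01 and 7.81 at 20 weeks. The HOXB4 arrays were at 7.66, 8.12 and 7.90 at 6 weeks, 8.04, 7.79 and 7.74 at 12 weeks, and 7.56, 7.56 and 7.09 at 20 weeks. The 3 HOXB4 arrays at 20 weeks lay below the other 12 arrays, and replicate 3 was the lowest. Tet2 was lower in HOXB4 cells at 20 weeks, by a log2 difference of -0.52 ± 0.15, 1.44-fold (adjusted p = 0.0413), beside 0.07 ± 0.15 at 12 weeks (adjusted p = 0.847). The difference between the effects, -0.60, did not pass (adjusted p = 0.303). Without HOXB4 replicate 3 at 20 weeks the difference was -0.37 (adjusted p = 0.170), and without GFP replicate 1 or 2 it was -0.50 and -0.48 (adjusted p = 0.122 and 0.151). Leaving out GFP replicate 1, 2 or 3 or HOXB4 replicate 2 or 3 at 12 weeks also ended the call, with an adjusted p of at most 0.0567. So did the fit of only the groups compared (adjusted p = 0.121), the mean of its probe sets (-0.41, 0.134), a further quantile normalisation (0.0669) and a variance trend with robust moderation (0.0541). A dimmer probe set of Tet2 gave -0.30 at 20 weeks. Within arrays, Tet2 minus its paralogue Tet3 ran from -1.19 to -0.98 in HOXB4 and from -0.51 to -0.28 in GFP cells at 20 weeks, which were apart.

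The other 4 Dnmt and Tet genes did not pass, with differences at 20 weeks from -0.08 for Dnmt1 to 0.24 for Dnmt3b. Dnmt3a, a de novo methyltransferase and the probe set of the group with the highest mean, was at 9.28, 9.49 and 9.04 in GFP and 9.46, 9.42 and 9.43 in HOXB4 cells at 20 weeks, which overlapped (0.17 ± 0.17, adjusted p = 0.624). Dnmt3b, the other de novo enzyme, was named after its values had been seen. It was at 8.52, 8.43 and 8.49 in GFP and 7.85, 8.18 and 8.22 in HOXB4 cells at 12 weeks. The values at 20 weeks were 7.72, 7.85 and 7.97 in GFP and 8.18, 7.64 and 8.45 in HOXB4 cells. The GFP arrays at 12 weeks lay above the HOXB4 arrays of that time and above the GFP arrays at 20 weeks, while the groups overlapped at 20 weeks. Dnmt3b gave -0.40 ± 0.26 at 12 weeks and -0.63 ± 0.26 within GFP cells between 20 and 12 weeks (adjusted p = 0.428 and 0.282). Its other probe set passed in both, at -0.61 and -0.75 (adjusted p over all probe sets = 0.0312 and 0.012). Dnmt1, the maintenance methyltransferase, was at 10.06 on HOXB4 replicate 1 at 6 weeks and between 8.89 and 9.19 on the other 14 arrays. That is the array with the largest Gapdh difference between ends, and its part in the value was not tested.

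Of the Kmt2a partners, Dot1l had the higher mean and Men1 the lower, and neither passed in any comparison. Men1 (menin), the scaffold that tethers Kmt2a to chromatin, was at 8.13, 7.97 and 8.07 in GFP and 7.67, 7.62 and 7.75 in HOXB4 cells at 12 weeks. The values at 20 weeks were 8.11, 8.18 and 7.75 in GFP and 7.95, 7.43 and 8.06 in HOXB4 cells. The groups were apart at 12 weeks (-0.37 ± 0.16, adjusted p = 0.220) and overlapped at 20 weeks (-0.20 ± 0.16, adjusted p = 0.522). Dot1l, the H3K79 methyltransferase, was at 7.99, 8.01 and 7.93 in GFP and 7.93, 8.13 and 8.08 in HOXB4 cells at 20 weeks, and the groups overlapped (0.07 ± 0.12). Setdb1, the H3K9 methyltransferase that silences retroviral elements, was at 8.25, 8.33 and 8.27 in GFP and 8.31, 8.45 and 8.80 in HOXB4 cells at 20 weeks. Setdb1 overlapped between the groups and differed by 0.23 ± 0.17 (adjusted p = 0.476).

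The test of whether the HOXB4 effect changed from 12 to 20 weeks called 0 of the 34 members, beside 0.509% of all genes (0.123% higher and 0.386% lower), and 3 members had an unadjusted p under 0.05. The smallest adjusted p was 0.182, for Cbx2. The difference was above 0 for 28 of 34 members (82.4%, beside 53.4% of all genes), with a median of 0.17, beside 0.02 over all genes. All 14 PRC1 members were above 0, with a median of 0.30. These counts describe the list and carry no test. The HOXB4 and GFP arrays of both times enter every one of them, a shift in GFP at 20 weeks included. From 12 to 20 weeks within HOXB4 cells, 25 of 34 members were above 0 (73.5%, beside 47.8% of all genes) and 9 below. The median change of PRC1 members over that time was 0.27 within HOXB4 cells and -0.10 within GFP cells. Over all genes these medians were -0.01 and -0.04.

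Within GFP cells from 12 to 20 weeks no member passed (2.37% of all genes did, 1.23% higher and 1.14% lower), and 4 had an unadjusted p under 0.05. The value at 20 weeks was above that at 12 weeks for 9 of 34 members (26.5%, beside 42% of all genes) and below it for 25, and 11 members did not overlap between the times, all of them lower at 20 weeks (32.4%, beside 22.2% of all genes, 8.04% higher and 14.1% lower). The smallest adjusted p was that of Pcgf2, given above. The PRC2 subunit Rbbp4 and the polyhomeotic gene Phc2 were among the 11, and so were Ezh1, Cbx2, Dnmt3b, Dot1l and Setdb1. Within HOXB4 cells no member passed from 6 to 12 weeks or from 12 to 20 weeks, beside 1.57% (1.25% higher, 0.316% lower) and 0.252% (0.0643% higher, 0.187% lower) of all genes. In these comparisons 6 and 5 members had an unadjusted p under 0.05. Between 6 and 12 weeks 6 members did not overlap (17.6%, beside 21.1% of all genes, 12.8% higher and 8.36% lower), and all were higher at 12 weeks: Ezh1, Rbbp4, Pcgf2, Cbx2, Cbx7 and Phc1. Between 12 and 20 weeks 6 members did not overlap (17.6%, beside 19.2% of all genes, 8.49% higher and 10.7% lower), with Bmi1, Ring1, Phc1, Phc3 and Asxl1 higher and Tet2 lower at 20 weeks. Ezh1 came closest between 6 and 12 weeks, at 0.53 ± 0.13 (adjusted p = 0.0602). From 6 to 20 weeks 4 of 34 members passed (11.8%, beside 4.66% of all genes, 3.3% higher and 1.36% lower), all higher at 20 weeks, and 11 had an unadjusted p under 0.05. The groups did not overlap for 9 members (26.5%, beside 18.2% of all genes), 7 higher and 2 lower, beside 9.31% and 8.85% of all genes. Ezh1 was the fourth beside Cbx2, Cbx7 and Phc1, at 0.67 ± 0.13 (adjusted p = 0.0129), and 3 of these 4 belong to PRC1. With the mean of its probe sets Ezh1 gave 0.33 and did not pass (adjusted p = 0.111), nor did it with array weights (0.62, adjusted p = 0.0577). The Gapdh difference between ends was 1.68 to 3.76 on the 6-week arrays and 1.21 to 2.02 on the 20-week arrays, and its part in these calls was not tested. With only the 6- and 20-week arrays in the fit 0 of the 4 passed (1 gene passed among all genes). There is no GFP group at 6 weeks here, so time after transplantation and the HOXB4 effect cannot be told apart in these comparisons.

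**Figure D3:**
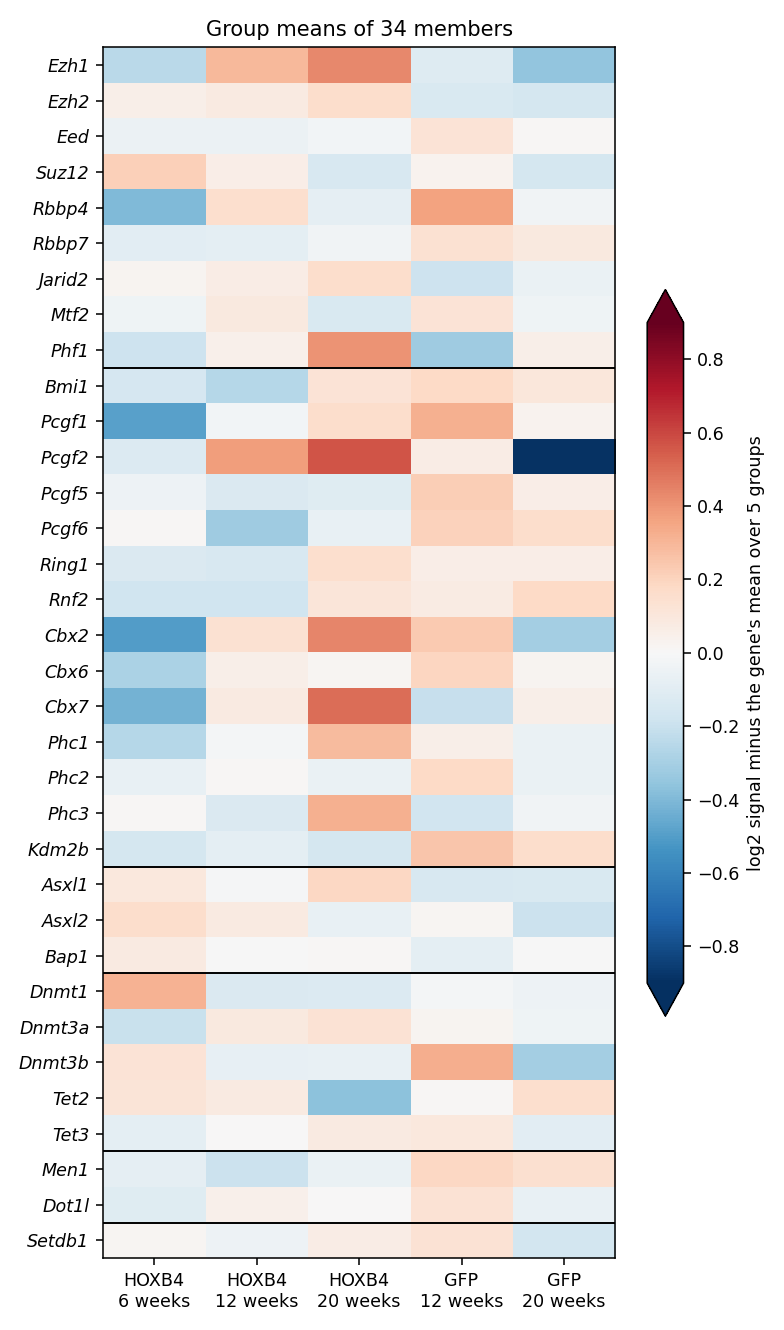
Group means of the 34 members (rows, by role, divided by lines) in the 5 groups (columns), as log2 signal minus the gene's mean over the groups, red above and blue below; the colour scale ends at 0.9 on either side. Pcgf2 in GFP cells at 20 weeks is the deepest blue, and Ezh1, Pcgf2, Cbx2 and Cbx7 are red in HOXB4 cells at 20 weeks.

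Across the 5 groups the range of a member's group means had a median of 0.372, near the 0.397 over all genes. The widest were Pcgf2 (1.46), Cbx2 (0.95) and Cbx7 (0.93), and the narrowest was Bap1 (0.17). The highest of the 5 group means was that of GFP at 12 weeks for 16 members and that of HOXB4 at 20 weeks for 12 members. HOXB4 at 6 weeks was highest for 4 and GFP at 20 weeks for 2. The same was not counted over all genes, so these counts cannot show a trait particular to the members. Ezh1, Pcgf2, Cbx2, Cbx7 and Phc1 were among the 12, whereas Bmi1, Kdm2b, Pcgf5, Men1 and Dnmt3b were among the 16. All 34 members had a mean signal above 5.78, the median of all genes.

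Other genes of the same pathways moved in both directions at 20 weeks. Of 19 measured further Polycomb genes 1 was higher in HOXB4 cells (Auts2, a variant PRC1 subunit, by 0.65, adjusted p = 0.0176) and none was lower, and of 13 further DNA methylation genes 2 were higher and 3 lower. The latter were led by Idh1, a cytosolic enzyme that makes the Tet cofactor alpha-ketoglutarate. Idh1 was at 8.44, 8.66 and 7.47 in GFP and 6.05, 6.04 and 5.89 in HOXB4 cells at 20 weeks, and the groups did not overlap. Idh1 was lower in HOXB4 cells, by a log2 difference of -2.20 ± 0.36, 4.60-fold (adjusted p = 0.00126), and its mitochondrial counterpart Idh2 by -0.64 (adjusted p = 0.00414). Dnmt3l, a cofactor of the de novo methyltransferases, was lower as well (-0.43, adjusted p = 0.0387). Uhrf1, which guides Dnmt1 to hemimethylated DNA, was higher by 0.45 (adjusted p = 0.0361), and so was Zbtb4, a methyl-CpG binding protein (0.57, adjusted p = 0.0427).

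Of 18 further Mll and Dot1l complex genes, 2 were higher at 20 weeks and none was lower. Mllt3 (Af9), a Dot1l partner known to maintain blood stem cells, was at 4.73, 4.51 and 4.68 in GFP and 6.70, 5.95 and 5.55 in HOXB4 cells, which did not overlap. Mllt3 was higher by 1.43 ± 0.26, or 2.69-fold (adjusted p = 0.00267), and Mllt6 by 0.86 (adjusted p = 0.0155). Of 6 further H3K9 genes, Atf7ip, the partner that stabilises Setdb1, was lower (-0.55, adjusted p = 0.0188), beside 0.23 for Setdb1 itself.

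Of 12 textbook targets of these complexes, 2 were higher in HOXB4 cells at 20 weeks, Eya1 by 1.75 and Hoxa9 by 0.80 (adjusted p = 1.7e-05 and 0.0112). Hoxa9, a homeobox gene that Kmt2a complexes keep active, was at 8.51, 8.55 and 8.44 in GFP cells at 12 weeks, 7.05, 7.26 and 7.45 in GFP cells at 20 weeks, and 8.49, 8.10 and 7.57 in HOXB4 cells at 20 weeks. The 20-week GFP arrays were the lowest, and Hoxa9 fell within GFP cells by 1.25 on the log2 scale (adjusted p = 0.00179). Cdkn2a, the classic Polycomb target, gave -0.19 at 20 weeks and did not pass. Its group means, 3.56 to 3.94, lay under the median of all genes, 5.78, and may be background. At 12 weeks the B lineage regulators Ebf1 and Pax5 were higher in HOXB4 cells, by 3.70 and 4.01 (adjusted p = 0.0115 and 0.012). Both genes also belong to the markers of B lineage cells, described next.

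**Figure D4:**
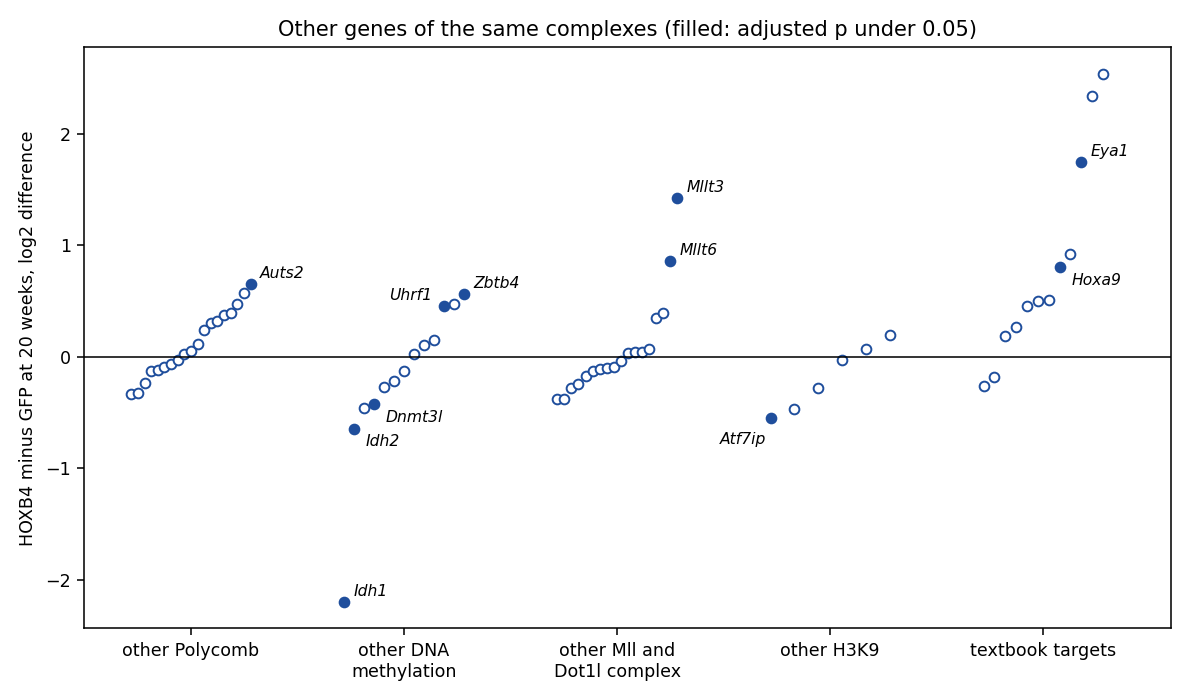
Log2 difference between HOXB4 and GFP cells at 20 weeks for further genes of the same pathways and for textbook targets, each point a gene, ordered by size within its list; filled points have an adjusted p under 0.05 and are named. Idh1 at -2.20 lies far below the rest, and Mllt3 and Eya1 are the highest of the filled points; the open points above 2 are Ebf1 and Pax5, which did not pass at this time.

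Marker genes of other blood cells, which a sorted fraction may contain, moved with the groups. In bulk RNA fewer cells of a type and less RNA per cell cannot be told apart. At 20 weeks all 7 measured markers of granulocyte progenitors were lower in HOXB4 cells, and their mean log2 signal ran from 7.81 to 8.70 on HOXB4 arrays and from 10.5 to 11.2 on GFP arrays. Monocyte and macrophage markers were lower for 5 of 6, with a mean of 6.03 to 6.52 in HOXB4 and 8.16 to 8.66 in GFP arrays, and within GFP cells all 6 were higher at 20 than at 12 weeks. Mature neutrophil markers were lower for 5 of 7 at 20 weeks (5.46 to 6.61 against 8.18 to 8.35). At 12 weeks they went the other way, with 1 of 7 higher in HOXB4 cells, all 7 above 0 and a median of 1.15, and within GFP cells 5 of 7 were higher at 20 than at 12 weeks. All 7 measured B lineage markers were higher in HOXB4 cells at 12 weeks (8.88 to 9.51 against 5.82 to 6.13). At 20 weeks 2 of 7 passed, with all 7 above 0 and a median of 2.35 (9.30 to 10.3 against 6.67 to 8.68). The test of a change of the HOXB4 effect between these times called 0 of the 7. Megakaryocyte markers were higher for 3 of 6 at 20 weeks, with a mean of 6.37 to 7.45 in HOXB4 and 5.28 to 5.88 in GFP arrays, and 3 of 6 were lower in GFP cells at 20 than at 12 weeks. Of 5 measured markers of the LSK fraction and its stem cells, Kit, Cd34, Flt3, Slamf1 and Procr, 2 were lower in HOXB4 cells at 12 weeks and 2 were higher at 20 weeks. Within GFP cells 2 of these 5 were lower at 20 weeks, where their mean was 7.11 to 7.35, than at 12 weeks, where it was 7.97 to 8.11. No erythroid marker of 4 and no T lineage marker of 5 passed in limma between HOXB4 and GFP cells at either single time, with 0 and 1 at an unadjusted p under 0.05 at 12 weeks and 1 and 1 at 20 weeks. Over both times 1 T lineage marker was higher in HOXB4 cells (limma adjusted p = 0.0442) and 0 erythroid markers passed. The part of these cells in the differences of Ezh1, Pcgf2, Cbx2, Tet2 and Kdm2b was not tested. Of 16 S phase genes and 14 mitosis genes 0 passed between HOXB4 and GFP cells at either time in limma, with 4 and 1 S phase genes and 2 and 2 mitosis genes at an unadjusted p under 0.05 at 12 and 20 weeks. Their medians at these times lay between -0.18 and 0.11. Over both times 1 S phase gene was lower and 1 mitosis gene was higher in HOXB4 cells (limma adjusted p = 0.0404 and 0.018).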

How the data were processed

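The 15 arrays were measured on total RNA, 20 ng of it, amplified with NuGEN reagents, per the labels' protocols. The authors' deposited values are log2 signals of 45141 probe sets, made by RMA with Partek 6.5 according to the labels and per the submitters' processing notes. In general RMA corrects background, quantile-normalises arrays and summarises probes. The deposited values still differed between arrays, with array medians from 5.25 to 5.40. Their interquartile range, a measure of spread within an array, was 2.61 to 2.91 on HOXB4 arrays and 2.90 to 3.10 on GFP arrays. The part of this difference in the counts by sign, by overlap and by highest group was not tested. Scan dates and batches of arrays were not known here. A low signal may be background, as detection was not scored, and the precision is limited by the number of arrays.

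Of the probe sets, 28898 had 1 gene symbol in the platform annotation, 551 had several and were left unnamed, and 15692 were not listed. Symbols were updated against the GRCm38.p6 gene table. The brightest probe set by the mean over 15 arrays was tested for each of 17097 genes, of which 7180 had several, and for the members 38 other probe sets were looked at, with 0 calls in the opposite direction. A linear model of group means was fitted to the 15 arrays together in limma 3.58.1 (R 4.3.3, lmFit and eBayes), with 10 residual degrees of freedom and 4.55 from the prior. The 8 comparisons were two-sided, their p-values were adjusted over all genes by Benjamini-Hochberg, and the fit was tested on simulated data. The smallest p that an exact permutation of 3 against 3 arrays allows is 0.1, and the adjusted p-values therefore depend on the model's pooled spread. Fold values are 2 to the power of the log2 difference.

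The members and the lists were chosen with earlier results of these data known. The text gives in full every member that passed in any of the 8 comparisons and, for each role, the members with the highest and lowest mean. From each further list the 4 genes with the smallest p in a comparison could be named. All other genes with values in the text were chosen after their values had been seen, among them Ezh2, Eed, Suz12, Bmi1, Pcgf6, Ring1, Rnf2, Cbx6, Phc2, Phc3, Asxl1, Dnmt1, Dnmt3b, Tet3, Zbtb4 and Cdkn2a. The alternatives tried were fitting the compared groups alone, removal of the dimmest genes, averaging the probe sets of a gene, a further quantile normalisation, arrays centred on their median, array weights, a variance trend with robust moderation, each array left out in turn, and a block for the replicate number. A fit without the 6-week arrays was added after the data had been seen.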

Additional observations from a re-analysis of the deposited data

Results flagged for a closer look

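Eya1, a transcriptional coactivator and a textbook target of Kmt2a and Polycomb complexes, was the only gene of the further lists whose HOXB4 effect differed between the times by the test of that difference. The log2 difference between HOXB4 and GFP cells was 1.75 at 20 weeks, and the effect was greater than at 12 weeks by 1.24 (limma, adjusted p = 0.0287). Eya1 in GFP cells was at 7.55, 7.24 and 7.35 at 12 weeks and 6.16, 5.74 and 6.49 at 20 weeks. In HOXB4 cells the signal was 7.91, 7.87 and 7.90 at 12 weeks and 7.90, 7.84 and 7.90 at 20 weeks. The HOXB4 arrays of these times lay between 7.84 and 7.91, whereas those of 6 weeks were at 7.11, 7.06 and 6.67, and Eya1 rose in HOXB4 cells from 6 to 12 weeks by 0.95 (adjusted p = 0.019). From 12 to 20 weeks Eya1 fell in GFP cells by 1.25 on the log2 scale (adjusted p = 0.000786). With 3 arrays a group, no array could be tested for standing apart from its group.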

How the results depend on the processing

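No called difference of a member changed sign under any alternative. At 12 weeks the count of members that passed between HOXB4 and GFP cells went from 0 to 6 with only the groups compared and to 3 with array weights, and it stayed at 0 in all fits that left out 1 array. Over all 17097 genes the count at 12 weeks went from 688 to 2593 with only the groups compared and to 2791 with array weights. At 20 weeks the count of members went from 4 to 2 with only the groups compared and ran from 2 to 5 on leaving out 1 array, with 2 reached without GFP replicate 1 or 2 of that time. Over all genes it went from 1530 to 715 with only the groups compared, and to 887 and 798 without those GFP replicates. Over both times the count of members went from 3 to 6 with the mean of probe sets and to 10 with array weights, and ran from 2 to 5 on leaving out 1 array. Over all genes it went from 2625 to 3014 with the mean of probe sets and to 4000 with array weights. For the difference between the effects the count of members went from 0 to 1 with only the groups compared or without the 6-week arrays, to 2 with array weights, and from 0 to 1 on leaving out 1 array. Over all genes it went from 87 to 183 with only the groups compared or without the 6-week arrays, and to 563 with array weights. For GFP at 20 against 12 weeks the count of members went from 0 to 1 with only the groups compared, without the dimmest genes, with the mean of probe sets or without the 6-week arrays, to 4 with array weights, and from 0 to 1 on leaving out 1 array. For HOXB4 at 12 against 6 weeks it went from 0 to 1 with centred arrays and ran from 0 to 3 on leaving out 1 array, with 3 reached without replicate 2 at 6 weeks. For HOXB4 at 20 against 12 weeks it was 0 throughout. For HOXB4 at 20 against 6 weeks it went from 4 to 0 with only the groups compared and to 1 with array weights, and ran from 3 to 5 on leaving out 1 array. In the main fit 406 of all genes passed for GFP at 20 against 12 weeks. For HOXB4 it was 268 at 12 against 6 weeks and 796 at 20 against 6 weeks. Apart from the fit of only the 6- and 20-week arrays, given above, counts over all genes under the alternatives are not given for these comparisons. Whether the members moved apart from all genes therefore cannot be read from their counts. In each case the cause was not tested.

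Ezh1 kept its call at 20 weeks under all 9 alternatives and all 15 fits that left out an array, and Pcgf2 under 8 of 9 and 15 of 15. Cbx2 kept it under 9 of 9 and 12 of 15, Tet2 under 5 of 9 and 7 of 15, and Kdm2b over both times under 7 of 9 and 6 of 15. Residuals of arrays with the same replicate number correlated between -0.17 and 0.12 over 30 pairs (median -0.030). Arrays with different numbers correlated between -0.18 and 0.25 over 60 pairs (median 0.023). No pairing by number was seen, but with 3 arrays a group these values cannot exclude one. With the replicate number as a block the counts of members were 0 at 12 weeks, 4 at 20 weeks, 3 over both times and 3 for HOXB4 at 20 against 6 weeks, and 0 in the other 4 comparisons. Over all genes the block gave 586 at 12 weeks, 1434 at 20 weeks and 2489 over both times. Kdm2b and Phc1 were lost with the block (adjusted p = 0.0525 and 0.0552). Over all called genes a further quantile normalisation moved the share that was higher from 79.9% to 68.1% for HOXB4 at 12 against 6 weeks, from 25.6% to 6.25% for 20 against 12 weeks and from 70.9% to 55% for 20 against 6 weeks. Signals near background and 3 arrays a group limit what could be detected.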
